A study of Mus musculus with 40 samples.

Results

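The first step of adipocyte induction was examined in cells that lack both HMGN proteins: H3K27ac in double knockout (DKO) preadipocytes at day 0 and in the same kind of culture at day 3 of differentiation. The comparison rests on 6 ChIP-seq peak lists, 3 for each day, of the 24 H3K27ac lists of the series. All cells came from inguinal white adipose tissue of C57BL/6 mice aged 8 to 12 weeks. DKO mice carry neither a functional Hmgn1 nor a functional Hmgn2 gene (Hmgn1-/- and Hmgn2-/-), and WT mice carry both. At day 0 the cells were confluent, untreated preadipocytes on collagen. At day 3 they were in differentiation medium with insulin, dexamethasone, IBMX, T3 and rosiglitazone. The 3 WT libraries of each of the same days were handled alike and serve below as samples that did not take part in choosing the regions. The authors describe the H3K27ac data as coming from 3 biological replicates. The labels number the libraries of a group without saying whether each came from a separate mouse or culture. The p-values below measure the spread between these libraries, and what a replicate stands for is not stated further.

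H3K27ac is an acetylated histone found at active promoters and enhancers, and HMGN1 and HMGN2 are nucleosome-binding proteins that reside at such sites. Adipogenic medium acts in waves. Dexamethasone activates the glucocorticoid receptor, IBMX raises cAMP by blocking phosphodiesterases, and both feed the early factors C/EBPβ and C/EBPδ, which precede C/EBPα and PPARγ, the receptor that rosiglitazone binds. Fibroblast programmes such as matrix synthesis, contractile filaments and YAP/TEAD signalling are known to recede as preadipocytes commit.

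Windows of 250 bp either side of every peak summit were merged over the 6 lists into 118469 regions, and a library was said to call a region when one of its peaks overlapped it by at least 1 bp. A region was gained when 3 of 3 day 3 and 0 of 3 day 0 libraries called it, lost in the reverse case, and kept when all 6 called it. By this rule 1742 regions were gained, 1.47% of all, 13920 were lost, 11.7%, and 35812 were kept. The remaining regions had mixed calls. Just outside the rule, 2248 regions were called by 2 of 3 day 3 and no day 0 library and 1230 by all of day 3 and 1 of day 0, while 12822 were called by 2 of 3 day 0 and no day 3 library and 6696 by all of day 0 and 1 of day 3.

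The targeted genes were read first. WT libraries of both days held 3 peaks each within 1 kb of an Hmgn2 start, with a highest fold enrichment of 7.93 to 17.3, and the 6 DKO libraries held 0 peaks there. At Hmgn1 every library of either genotype had 2 to 4 peaks at the start, so H3K27ac at that start does not separate the genotypes.

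The DKO lists held 94943, 60672 and 111001 peaks at day 0 and 64777, 82585 and 69105 at day 3. Mapped read numbers are not in the lists, but whole reads at each summit could be recovered from the fold and the p-value, and the background under the peaks was 8.62 to 10.5 reads per kb in the 6 DKO libraries. Among the WT libraries of these days it was 9.51 to 11.5 except in WT day 3 replicate 3, at 4.52. DKO day 0 replicate 2 stood apart by its long peaks: its median peak was 1076 bp long and its shortest 440 bp, against medians of 326 to 349 bp and shortest peaks of 155 to 160 bp in the other 5. A long peak calls several neighbouring regions with 1 fold value. This bears on the lost regions in particular, of which 57% held a summit of all 3 day 0 libraries, against 90.9% of gained regions with a summit of all 3 day 3 libraries. When a call required a summit window in place of any overlap, 2136 regions were gained and 7967 lost. Without replicate 2 of day 0 the numbers were 2527 and 16042, and with the 20000 strongest peaks of each library 528 and 2232. Lost regions outnumbered gained ones under all 10 alternatives, by 3.73 to 12.3 times, and that ratio was 7.99 in the main setting.

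The sequences below are the 201 bases centred on the summit of 4 strong gained regions and 2 strong lost regions, plus strand, build mm10. They are shown because they are among the strongest regions of each class with a summit in every library that called them. Capitals mark matches to the motifs searched, listed further on.
Zbtb16 intron, gained, chr9:48723971-48724171: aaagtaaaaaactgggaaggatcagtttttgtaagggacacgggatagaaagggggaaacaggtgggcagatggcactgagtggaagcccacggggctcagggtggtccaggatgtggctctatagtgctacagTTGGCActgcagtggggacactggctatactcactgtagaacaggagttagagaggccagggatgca
Fkbp5 intron, gained, chr17:28422445-28422645: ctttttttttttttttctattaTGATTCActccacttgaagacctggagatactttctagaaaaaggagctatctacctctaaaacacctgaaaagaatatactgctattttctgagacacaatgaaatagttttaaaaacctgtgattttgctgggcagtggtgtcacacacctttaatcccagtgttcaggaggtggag
Cblb intron, gained, chr16:52092140-52092340: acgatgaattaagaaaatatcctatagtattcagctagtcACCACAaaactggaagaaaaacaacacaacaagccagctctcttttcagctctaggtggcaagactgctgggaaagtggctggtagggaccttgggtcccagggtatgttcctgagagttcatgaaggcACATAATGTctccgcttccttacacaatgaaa
Near Anapc16 and Ddit4, gained, chr10:59971622-59971822: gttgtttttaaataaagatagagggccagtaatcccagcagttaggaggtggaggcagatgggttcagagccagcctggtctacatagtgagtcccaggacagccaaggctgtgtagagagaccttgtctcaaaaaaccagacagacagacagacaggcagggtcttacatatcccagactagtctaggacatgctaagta
Lpp intron, lost, chr16:24974983-24975183: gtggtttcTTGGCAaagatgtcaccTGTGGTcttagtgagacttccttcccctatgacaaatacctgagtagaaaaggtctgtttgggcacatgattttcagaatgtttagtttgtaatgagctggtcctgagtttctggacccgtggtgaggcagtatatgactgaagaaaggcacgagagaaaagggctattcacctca
Acsl1 intron, lost, chr8:46497506-46497706: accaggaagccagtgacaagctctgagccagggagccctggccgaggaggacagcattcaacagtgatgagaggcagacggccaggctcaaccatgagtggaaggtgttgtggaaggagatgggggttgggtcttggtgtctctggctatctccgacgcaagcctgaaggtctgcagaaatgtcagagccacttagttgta
The Zbtb16 window holds 1 NFI match, the Fkbp5 window 1 AP-1 match, the Cblb window 1 glucocorticoid receptor and 1 RUNX match, and the Lpp window 1 NFI match and 1 RUNX match. No motif of the set was matched in the Anapc16 and Acsl1 windows.

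Zbtb16, which encodes the zinc finger transcription factor PLZF, showed the largest gain of any gene. Its gene body runs over 182 kb (chr9:48654297-48836222, minus strand) and with 5 kb upstream it held 63 merged regions, of which 37 were gained and 0 lost. The day 0 libraries called 5, 5 and 4 of these regions and the day 3 libraries 44, 57 and 52. The covered length grew from 1.85, 3.91 and 1.99 kb to 28.8, 41 and 35.2 kb. The gained regions formed runs in the introns, one of 23 regions over 40.4 kb (chr9:48722855-48763255) and one of 13 regions over 24.1 kb (chr9:48775649-48799787). The intronic region whose sequence is printed above, 112 kb from the start, had a fold enrichment of 19, 22.1 and 16.2 in the day 3 libraries and no peak at day 0. At the promoter (chr9:48835484-48836344), called on both days, fold enrichment was 4.53, 3.76 and 4.64 at day 0 and 21.4, 20.9 and 17.8 at day 3, a change of 2.52 ± 0.21 (log2, SE; limma adjusted p = 0.0019). WT libraries called 3, 2 and 2 of the 63 regions at day 0 and 53, 51 and 43 at day 3.

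**Figure D1:**
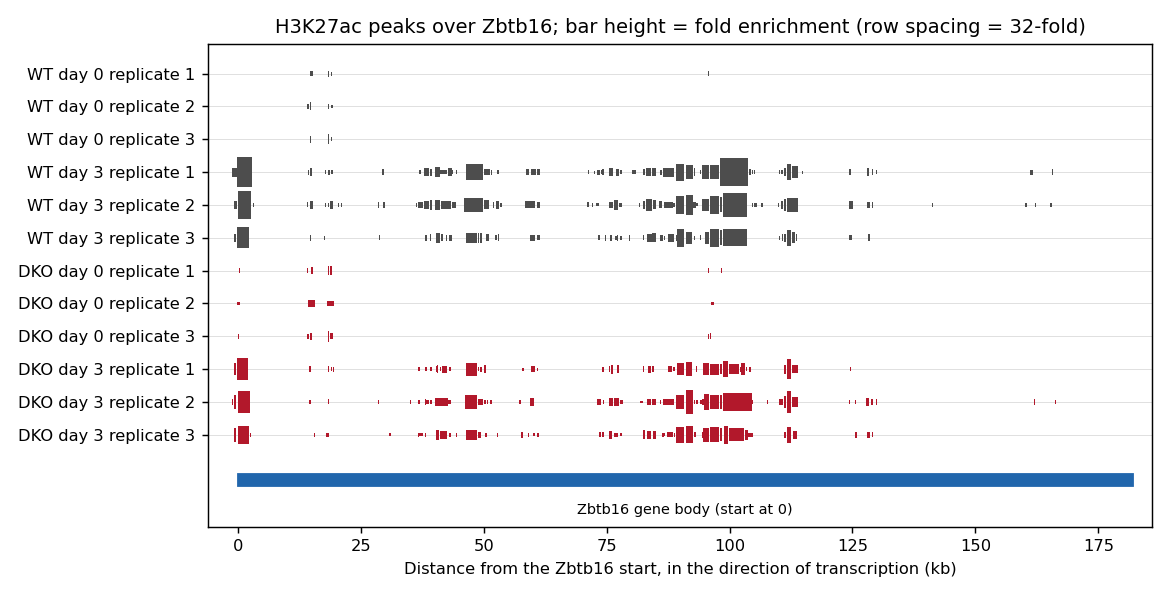
H3K27ac peaks over Zbtb16 in 12 libraries (WT grey, DKO red), plotted by distance from the gene start in kb in the direction of transcription; each box is a peak and its height is the authors' fold enrichment, with rows spaced 32-fold apart. Day 0 libraries hold 3 to 7 small peaks, and day 3 libraries of both genotypes hold 48 to 62, spread from the start through the introns.

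Il15ra, Scara5 and Fkbp5 followed the same course, with gained regions and no lost ones. Il15ra, the alpha chain of the interleukin 15 receptor, held 11 gained regions; 4 of its regions were called in each day 0 library and 18, 20 and 20 at day 3. Its strongest regions (chr2:11709542-11710042 and chr2:11710346-11710846) had the same fold enrichments of 26.7 and 26 in day 3 replicates 2 and 3, and 5.61 and 8.02 in replicate 1, and each held a summit of 1 library. Scara5, a scavenger receptor that takes up ferritin, held 14 gained regions and went from 9, 11 and 9 called regions to 32, 39 and 38. Fkbp5, a co-chaperone of the glucocorticoid receptor and one of its classical target genes, held 11 gained regions and went from 23, 28 and 28 to 41, 51 and 47. The gained Fkbp5 intron region (chr17:28422035-28423829) had a fold enrichment of 16, 18.1 and 16.8 at day 3. A further strong gained region (chr17:28524293-28525953) lay 7.02 kb from the Fkbp5 start and 6.26 kb from that of Armc12, at 16.2, 14.1 and 9.85.

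The other long runs of gained regions lay at Il15ra, with 13 over 26.8 kb, at Scara5, with 12 over 45.4 kb, and near Atp6v1c1, a subunit of the proton pump of lysosomes, with 12 over 19 kb. The other genes with the most gained regions were Nfia and Ror1 with 15 each, Col4a1 with 10 and Thsd7a with 8. Nfia, a transcription factor that promotes the brown fat programme, went from 49, 66 and 55 called regions to 69, 97 and 75, with 2 lost regions beside its 15 gained ones. Ror1, a receptor for Wnt5a, went from 21, 34 and 23 to 51, 67 and 56, and held 1 lost region. Col4a1, a collagen of the basement membrane, went from 20, 23 and 22 to 42, 48 and 36. Thsd7a went from 4, 6 and 3 to 15, 18 and 14. In each of these genes, and in Zbtb16, Il15ra, Scara5 and Fkbp5, every day 3 library called more regions than any day 0 library. All were chosen for holding the most gained regions, so this follows largely from the choice. Over all 21911 protein-coding genes 284 had more called regions in every day 3 library, 1.3%, and 3887 showed the reverse, 17.7%. Without day 3 replicate 1 the first count was 438 and without day 0 replicate 2 it was 427, and with summit calls the second was 2273. Among the 20000 strongest peaks the counts were 161 and 1032.

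The strongest gained region with a summit in every day 3 library (chr10:59971472-59973824) was intergenic, 18.7 kb from the nearest start, that of Anapc16, and 19.9 kb from the start of Ddit4, a glucocorticoid-induced inhibitor of mTORC1. Its fold enrichment was 21.8, 22.9 and 24.7. A gained region in an intron of Cblb, a ubiquitin ligase that restrains receptor signalling (chr16:52091572-52092490), had 6.85, 18.6 and 15.6. The last values, of replicates 2 and 3, are also those of a neighbouring Cblb region that was called on both days, so they are not a measurement of the gained region alone. One in Col4a2 (chr8:11380579-11381079) had 4.35, 17 and 16.9, with a summit of its own in 1 library. In both, replicate 1 of day 3 was far below replicates 2 and 3.

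**Figure D2:**
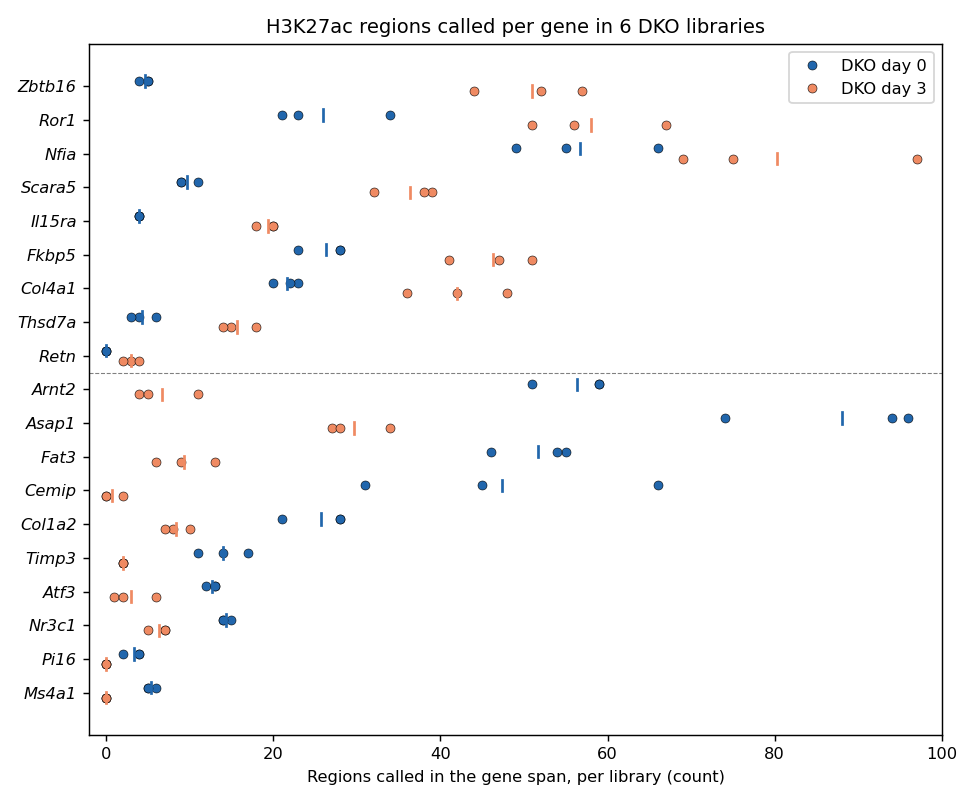
Number of H3K27ac regions called in each gene span by the 3 DKO libraries of day 0 (blue) and of day 3 (orange); dots are libraries and short bars means. The genes were chosen for their gained or lost regions. Genes above the dashed line have more regions in every day 3 library and genes below it fewer, from 44 to 57 against 4 or 5 in Zbtb16 to 0 to 2 against 31 to 66 in Cemip.

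By these calls loss was wider and spread over more genes. Kept regions had a lower median fold enrichment in the day 3 libraries, 7.52 to 9.09, than in the day 0 libraries, 9.44 to 10.8. The part of this shift in the number of lost regions was not tested. Arnt2, a bHLH-PAS transcription factor, held 35 lost and 0 gained regions, 30 of them in a run of 69.6 kb (chr7:84290671-84360298), and went from 51, 59 and 59 called regions to 4, 11 and 5. Cemip, which is needed for the breakdown of hyaluronan, held 22 lost regions and went from 31, 66 and 45 to 0, 2 and 0. Fat3, an atypical cadherin, held 25 and went from 46, 55 and 54 to 6, 13 and 9. Asap1, a regulator of Arf GTPases and the cytoskeleton, held 31 and went from 74, 94 and 96 to 27, 34 and 28. Lpp, a LIM protein of focal adhesions, held 23 lost and 2 gained regions and went from 89, 123 and 107 to 50, 85 and 59, so that its days came close without overlap. Gm20388, Fgfr2 and Gm37240, with 110, 53 and 22 lost regions, are gene models of 4435, 2961 and 1391 kb that span other genes, so that their counts are not those of 1 gene. The other long runs of lost regions lay near Lbh, with 29 regions over 57.6 kb, near Thbs1, with 28 over 92.3 kb and 26 over 52.4 kb, and near Banp, with 22 over 84.6 kb.

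The 10 lost regions with the highest −log10 q lay near Clic1, Rnf135, Plekho2, Rab5a, Inppl1, Fbxw11, Actr3, Trak1, Sppl2a and Farsb. None of the 10 held a summit of all 3 day 0 libraries, and 9 lay within 4.02 kb of a gene start. At Rab5a, for example, fold enrichment was 3.84, 19.2 and 30, and the region held a summit of 1 of the 3 libraries. A set limited to lost regions with a summit of every day 0 library was therefore added after the values were seen. Its 8 strongest lay in or near Ptpn7, Haao, Fmnl3, Lpp, Ube2q1, Kcnn4, Acsl1 and Sh3pxd2a. The promoter region of Ptpn7 (chr1:135132638-135133353), a phosphatase of leukocytes, had a fold enrichment of 18.9, 19.6 and 21.6 at day 0, and that of Kcnn4 (chr7:24383546-24385873), a calcium-activated potassium channel, had 13.6, 19.4 and 12.9. The Lpp region had 14.7, 14.2 and 18.6. The Acsl1 intron region (chr8:46497156-46498386), in a gene for a long-chain acyl-CoA synthetase of fat cells, had 6.95, 9.7 and 15 and was called again in all 3 DKO libraries of day 9.

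Gained regions lay farther from genes than lost ones. Of gained regions 6.03% had their summit within 1 kb of a transcript start, of lost regions 9.44%, of kept regions 42.9% and of all merged regions 19.7%. The median distance to a start was 30.5 kb for gained, 13.7 kb for lost and 1.98 kb for kept regions. Another region of the same class lay within 10 kb of 44% of the gained and 59.2% of the lost regions. No such share was computed for kept or all merged regions. The lost set is larger, and a long peak can call neighbouring regions. The part of either in these shares was not tested. Gained regions were poorer in G and C, with a median of 45.8% in the 201 bases around the summit against 48.8% for lost regions. The median fold enrichment of gained regions, 5.21, 5.78 and 5.47 in the day 3 libraries, was close to that of lost regions at day 0, 5.23, 5.53 and 5.74, and both were below that of kept regions, 7.52 to 10.8.

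Per library, the share of peaks at promoters was 27.1%, 23.2% and 24.3% at day 0 and 34.6%, 28.8% and 32.9% at day 3. The days did not overlap, and the difference of 7.24 percentage points had an exact two-sided permutation p of 0.1, the smallest that 3 against 3 libraries allow. Among the 20000 strongest peaks of each library this difference was 4.65 points (exact permutation p = 0.2). The part of peak number in the promoter share was not tested. The number of peaks was 88872 ± 25708 at day 0 and 72156 ± 9288 at day 3 (SD, n = 3), a difference of −16716 that lay within the spread between libraries (exact permutation p = 0.4). It was −30816 without day 0 replicate 2 and −5652 without day 0 replicate 3. The length under summit windows, 43.6 ± 12.1 Mb and 35.2 ± 4.57 Mb (SD, n = 3), gave the same exact permutation p of 0.4. Their difference of −8.4 Mb was −15 and −3.14 Mb without these libraries in turn.

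Motifs of factors known to act in this step were searched within 100 bp of the summit on both strands: AP-1 (TGANTCA), C/EBP (TTGCNNAA), glucocorticoid receptor (ACANNNTGT), PPAR and RXR (GGNCANAGG), TEAD (GGAATG), NFI (TTGGCA), RUNX (TGTGGT), EBF (CCCNNGGGA) and CRE (TGACGTCA). Among distal regions, more than 1 kb from a start, the C/EBP letters were found in 8.67% of gained, 6.89% of lost and 7.34% of all. Glucocorticoid receptor letters were found in 7.21%, 6.43% and 6.65%. The order was the opposite for PPAR and RXR, at 5.01%, 6.58% and 6.58%, and for EBF, at 2.14%, 3.63% and 3.48%. AP-1 was at 6.11%, 6.12% and 6.05%. These shares are descriptions, since gained and lost regions also differ in base composition, whose part was not tested.

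Per library the motif shares of distal peaks moved by less than 1 percentage point. The AP-1 share was 5.74%, 7.16% and 5.91% at day 0 and 5.49%, 5.57% and 5.39% at day 3, a difference of −0.785 points with an exact permutation p of 0.1, or 0.18 adjusted over the 9 motifs. The long-peaked replicate 2 held the highest value, and without it the difference was −0.339. The glucocorticoid receptor, TEAD, RUNX and EBF shares also separated the days by small amounts, −0.25, −0.297, −0.25 and −0.181 points (exact permutation p = 0.1 each, adjusted 0.18), and those of the glucocorticoid receptor and TEAD changed sign among the 20000 strongest peaks, to 0.156 and 0.185. Without day 0 replicate 2 these were −0.142 and −0.146. The C/EBP share differed by −0.105 points (exact permutation p = 1), and by 0.0881 in the other direction without day 0 replicate 2 (exact permutation p = 0.1, the smallest possible).

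Genes were then read in 15 lists, all described beside the whole genome, where 1.87% of protein-coding genes held a gained and no lost region, 18.7% a lost and no gained one and 0.849% both. These shares include genes with no region at all, and of the 14762 genes that held any merged region 2.78% held gained only and 27.8% lost only. The lists were chosen with earlier results of these data known, so the shares of their members are descriptions.

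Glucocorticoid response genes, a list that includes the strongly gaining Zbtb16 and Fkbp5, stood at the gaining end. Of 25, 7 held gained regions only (28%), 3 lost only, 2 both and 13 neither. Besides Zbtb16 and Fkbp5 the gaining members were Hif3a with 3, Lcn2 with 2, and Mt1, Per1 and Angptl4 with 1 each. Hif3a, a hypoxia-related factor, went from 1, 0 and 1 called regions to 4, 5 and 4. Lcn2, the secreted lipocalin 2, went from 0 in each library to 3, 2 and 3. Per1, a clock gene, went from 8, 9 and 9 to 10, 11 and 10. Sgk1, a kinase of the insulin pathway, held 1 gained and 3 lost regions, and Crispld2 1 and 2. Cdkn1a, Dusp1 and Klf9 held 1 lost region each. Klf9, a Krüppel-like factor, nevertheless had 3 kept regions that rose in the limma test of levels.

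Of 19 cAMP response genes 3 held gained regions only, 2 lost only, 2 both and 12 neither, in a list with a median gene length of 41.3 kb against 17.4 kb over all genes. Pde4b, a phosphodiesterase that cAMP signalling induces, held 4 gained regions and went from 16, 20 and 19 called regions to 28, 33 and 27. Pde4d held 6 gained and 4 lost regions in a gene of 1504 kb. Pde10a and Per1 held 1 gained region each. Nr4a1, an orphan nuclear receptor, held 1 gained and 2 lost regions. Pde4a held 4 lost regions and went from 7, 8 and 7 to 3, 4 and 3.

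Adipogenic transcription factors divided. Of 23, 4 held gained regions only, 7 lost only, 1 both (Nfia) and 11 neither. Zbtb16 is in this list too, and Klf9 is among its losing members. Pparg, the master regulator of fat cells, held 3 gained regions and went from 5, 8 and 6 called regions to 9, 13 and 10. Rxra, its heterodimer partner, held 1 gained region but had fewer called regions in all, 33, 37 and 34 at day 0 and 26, 32 and 28 at day 3. Nfil3 held 1 gained region, and its library counts overlapped between the days. Nr3c1, which encodes the glucocorticoid receptor itself, held 7 lost regions and went from 14, 15 and 14 to 7, 7 and 5. Srebf1, a regulator of lipid synthesis, held 4 lost regions and went from 11, 16 and 15 to 6, 10 and 7. Nfib held 3 lost regions and Ebf1 held 2.

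PPARG target and lipid genes lay near the shares over all genes. Of 32, 1 held gained regions only (3.12%, against 1.87% of all genes), 7 lost only (21.9%, against 18.7%) and 24 neither. The gaining one was Retn, the hormone resistin, with 2 gained regions and 0 called regions in each day 0 library against 3, 2 and 4 at day 3. Cd36, the fatty acid transporter, held 4 lost regions and went from 10, 13 and 12 to 5, 4 and 4. Mgll held 2 lost regions, and Acsl1, Elovl6, Fabp5 and Plin1 held 1 each. Of 22 brown and beige adipocyte genes 0 gained, 2 held lost regions only (9.09%), which were Acot11 with 2 and Gk with 1, and 20 neither. A list of 22 is too short to tell 0 gaining genes from the share of 1.87% over all genes.

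Preadipocyte and progenitor markers moved both ways, 4 of 24 with gained only, 8 with lost only and 12 with neither. Fgf10, a growth factor for preadipocytes, held 4 gained regions and went from 4 called regions in each day 0 library to 8, 9 and 8. Cd34, a surface marker of progenitors, and Cd55 held 1 gained region each and had none called at day 0. Mmp3, a matrix metalloproteinase, held 1. Pdgfrb, a receptor of stromal precursors, held 5 lost regions and went from 18, 24 and 23 to 9, 11 and 9. Itgb1 held 3. Pi16, a marker of uncommitted adventitial progenitors, held 2 lost regions and went from 2, 4 and 4 to 0 in each library. Cd81, F3 and Thy1 also held 2 each, and Eng and Icam1 1.

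Matrix and contractile genes lay at the losing end by share of genes, with 16 of 30 holding lost regions only (53.3%). Another 2 held gained only, which were Mmp2 with 2 and Vcan with 1, and 12 neither. All 30 held a region, and of all genes with a region 27.8% held lost only. Their median length was 28.3 kb against 17.4 kb over all genes. They held 58 lost and 226 kept regions, against 10129 and 34007 over all genes, so lost regions were no more frequent beside kept ones. Col1a2, a chain of type I collagen, held 12 lost regions and went from 21, 28 and 28 called regions to 8, 10 and 7. Timp3, an inhibitor of metalloproteinases, held 8 and went from 11, 17 and 14 to 2 in each library. Col5a1, Ltbp2 and Thbs1 held 5 each. Acta2, smooth muscle actin, held 3 and went from 6, 7 and 8 to 2, 2 and 3. Kept regions of this list went in both directions.

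YAP and TEAD target genes lay at the losing end as well, with 12 of the 18 found in the annotation holding lost regions only (66.7%), 1 gained only (Arhgap29), 1 both (Tead1, with 1 gained and 5 lost) and 4 neither. Crim1 held 7 lost regions and went from 25, 26 and 27 to 4, 8 and 7. Lats2, a kinase that restrains YAP, held 5 and went from 16, 22 and 21 to 9, 9 and 8. Yap1 itself, Ajuba and Nuak2 held 3 each. Of 17 AP-1 and immediate early genes, all with a region, 6 held lost regions only (35.3%), 0 gained and 11 neither. The lost share lay near the 27.8% of all genes with a region. These 17 held 13 lost and 56 kept regions, against 10129 and 34007 over all genes, so lost regions were no more frequent beside kept ones. Atf3, a stress-induced factor, held 6 lost regions and went from 12, 13 and 13 to 1, 6 and 2. Batf and Jund held 2 each, and Batf3, Egr3 and Maff 1 each. Median gene lengths were 25.3 and 5.16 kb in these lists against 17.4 kb over all genes, and longer genes can hold more regions.

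**Figure D3:**
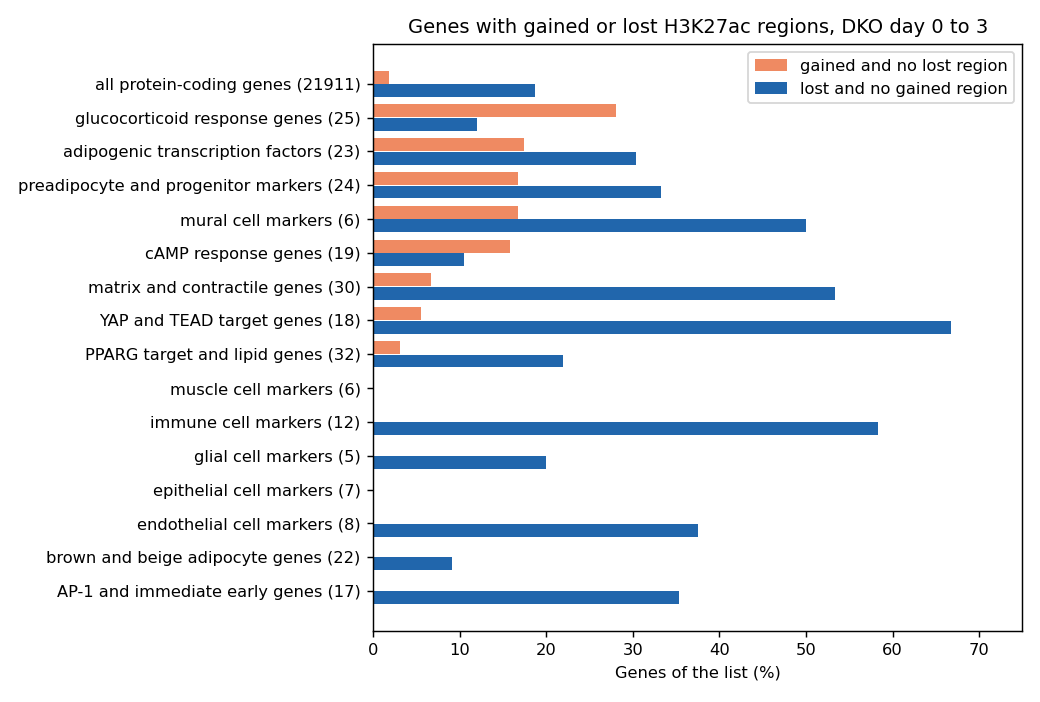
Percent of the genes of each list that hold gained and no lost regions (orange) or lost and no gained regions (blue), with the number of genes found in the annotation in brackets; the top row is all protein-coding genes, at 1.87% and 18.7%. The glucocorticoid list has the longest orange bar, 28%, and the YAP and TEAD list the longest blue one, 66.7%. The lists were chosen with earlier results of these data known.

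Markers of other cell types moved with the day. Of 12 immune markers 7 held lost regions only (58.3%, or 87.5% of the 8 that held any region) and 0 gained ones. Ms4a1, a B cell antigen, went from 5, 6 and 5 called regions to 0 in each library, Ptprc, the common leukocyte antigen, from 11, 16 and 15 to 3, 2 and 1, and Csf1r, a macrophage receptor, from 11, 14 and 13 to 6, 9 and 6. Peaks stood within 1 kb of the start of 8 of the 12 in each day 0 library and of 6 in each day 3 library. Cd3d and Ms4a1 made the difference, Adgre1, Cd68, Csf1r, Itgam, Lyz2 and Ptprc had such a peak in all 6 libraries, and Cd3e, Cd79a and Nkg7 were among those with none in any. Of 8 endothelial markers 3 held lost regions only (Erg and Pecam1 2, Tek 1), and 4 had a peak at the start in each day 0 library against 3, 3 and 2 at day 3. Lost regions were also held by 3 of 6 mural markers (Myh11 2, Abcc9 and Cspg4 1), with 1 gained at Kcnj8, and by 1 of 5 glial markers (S100b), while muscle and epithelial markers held neither. In a bulk culture fewer cells of a type cannot be told apart from less acetylation per cell, and the part of such cells in the lost regions was not tested. Of the preadipocyte markers, 6 to 7 of 9 had a peak at the start at day 0 and 7 to 8 at day 3, and of the adipocyte markers 7 and 6 to 7 of 9. Adipoq, which defines mature fat cells, had no peak at its start in any of the 6 libraries.

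Levels were compared in the 35812 kept regions, on log2 fold enrichment centred on the median of each library, with limma. At an adjusted p under 0.05, 2224 regions rose, 6.21%, and 1296 fell, 3.62%. Without day 3 replicate 1 the numbers were 327 and 315. Median fold enrichment of kept regions was 9.44, 10.1 and 10.8 in the day 0 libraries against 7.52, 9.09 and 8.17 in those of day 3. Centring removes this shift of 0.30 (log2). Without centring 561 rose and 3845 fell, so 63.2% of the called regions rose with centring, 12.7% without it and 51.6% with quantile scaling. The balance of the directions thus rests on the scaling, and changes are relative to the typical kept region. The largest rises included those at the Zbtb16 and Fkbp5 promoters, in Nfia and in 4930486L24Rik. The Nfia region held no day 3 summit. The 5 largest falls lay within 4.58 kb of the starts of Cfl1, Runx1, Piezo1, Slfn5 and Atl3, from −2.41 to −2.14, and none of these 5 held a summit of all 3 day 0 libraries.

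The test was therefore repeated, as an alternative added after the values were seen, on the 22058 kept regions that held a summit of each of the 6 libraries. In these 2410 rose, 10.9%, and 1764 fell, 8%, and without centring, which shifts all changes by 0.21, 757 and 2931 did. The Zbtb16 promoter rose by 2.43 ± 0.20 (log2, SE; limma adjusted p = 6.4e-08). The Fkbp5 promoter (chr17:28516967-28518754) went from 5.04, 5.36 and 6.68 to 18.1, 21.7 and 21.3, a rise of 2.05 ± 0.19 (limma adjusted p = 4.6e-07). The neighbouring Cblb intron region (chr16:52093427-52094648), which shares its day 3 values in replicates 2 and 3 with the gained one, went from 4.67, 5.55 and 5.46 to 16, 18.6 and 15.6, a rise of 1.89 ± 0.20 (limma adjusted p = 4.1e-06). A region in 4930486L24Rik rose by 1.99 ± 0.22, and a Zbtb16 intron region by 1.87 ± 0.23.

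The largest fall was in an intron of Anpep (chr7:79857751-79859884), which encodes the aminopeptidase CD13 of stromal and myeloid cells. Its fold enrichment went from 23.6, 18.5 and 21.9 to 5.28, 5.76 and 4.11. It fell by 1.88 on the log2 scale (SE 0.20, limma adjusted p = 4.1e-06). The promoter of Cd72 (chr4:43453533-43455089), a B cell and macrophage receptor, went from 17.6, 21.6 and 23.5 to 4.99, 3.85 and 6.24, and an intronic region whose nearest start is that of Acta1, 10.3 kb away, from 18.7, 14.9 and 16.5 to 3.66, 4.17 and 4.31. The remaining falls were near Dot1l, at −1.82, and D5Ertd579e, at −1.76.

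**Figure D4:**
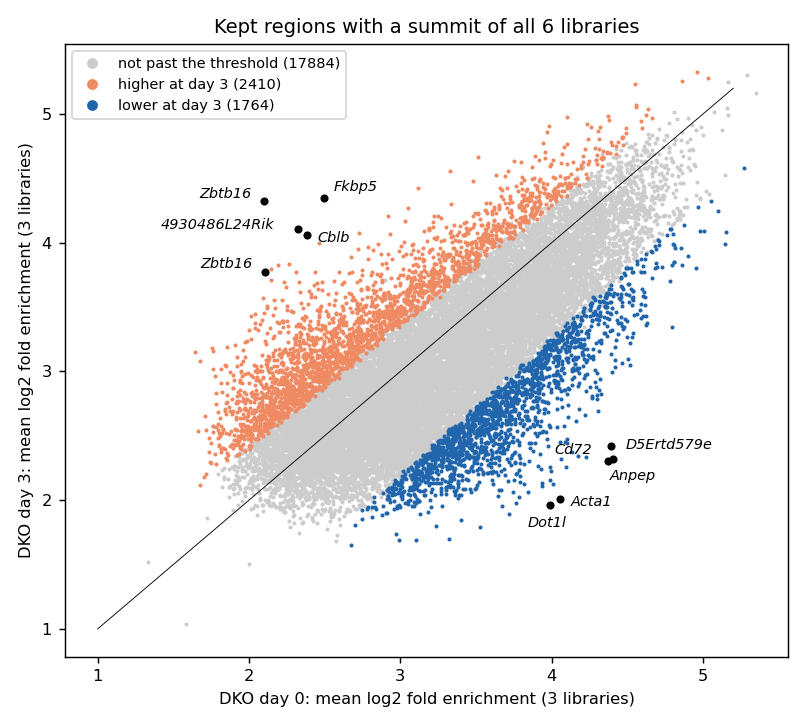
Mean log2 fold enrichment over the 3 DKO libraries of day 0 (x axis) and of day 3 (y axis) for the 22058 kept regions with a summit of all 6 libraries; orange points rose (2410) and blue points fell (1764) in limma on centred values, and the line marks equal uncentred values. The 5 largest rises and falls are named, with Zbtb16 and Fkbp5 at the upper left and Anpep and Cd72 at the lower right.

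Genes were counted by these kept regions as well. Of 11814 genes that held such a region, 12.5% had 1 or more that rose and none that fell, and 10.3% the reverse. Of 19 adipogenic transcription factors 8 had only rises and 1 only a fall (Srebf1). The rises included 4 of 12 regions in Nfia, 3 of 6 in Tcf7l1, 2 of 3 in Pparg and 2 of 3 in Klf15, while Ebf1 had 6 rises and 1 fall among 20. Of 19 glucocorticoid response genes 7 had only rises and 0 a fall, among them 6 of 12 regions in Fkbp5, 3 of 3 in Klf9 and 1 of 1 in Mt2. Of 26 matrix and contractile genes 6 had only rises, among them Col5a2 with 4 of 6 regions and Col3a1 with 2 of 6, and 5 had only falls, which were Acta2, Tpm1, Timp3, Ltbp2 and Mmp2 with 1 region each. The test over all kept regions differed for some of these. There Col1a1, with 1 rise here, had 6 falls and 0 rises among 11 regions, Mmp2 had 5 rises and 1 fall among 10, and Acta2, Timp3 and Ltbp2 had no call. Tcf7l1, Thy1 and Srebf1 had no call in it either, and Dusp1, a glucocorticoid response gene, had 1 fall. Pparg had 1 rise among 3 kept regions in that test. Of 15 YAP and TEAD target genes 3 had only rises (Yap1, Wwtr1 and Arhgap29) and 3 only falls (Lats2, Tead1 and Ajuba), and over all kept regions Tead1 had 2 rises and 0 falls. Col5a1 lost 5 regions and had 1 kept region that rose. Pdgfra and Fap, stromal markers, each had 1 rise, and Thy1 had 2 falls. Of 22 PPARG target and lipid genes 0 rose and 1, Cd36, had a fall.

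The WT libraries, which the rule did not use, separated the days in the same direction at these regions. Of the DKO-gained regions the WT day 0 libraries called 12.7%, 19% and 15.6% and the WT day 3 libraries 93.1%, 93.5% and 70.8%, a difference of 70 points with no overlap (exact two-sided permutation p = 0.1). The low value is that of the shallow replicate 3. Of all merged regions WT libraries called 58.1% to 64.4% at day 0 and 41.6% to 58.4% at day 3. Of the DKO-lost regions they called 66%, 75.5% and 71.4% before induction against 24.3%, 27% and 9.13% after it, a difference of −50.8 points (exact permutation p = 0.1). By the same rule applied to WT, 826 of the DKO-gained regions were also gained in WT (47.4%, against 2.4% of all merged regions), 1 was lost, and 3881 of the DKO-lost regions were also lost in WT (27.9%, against 6.08%).

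A minority of regions had other calls in WT. Of gained regions 2.7% were called by no WT day 3 library, against 34.9% of all merged regions. Of the gained regions 36 were called in 0 of the 6 WT libraries (2.07%) and 67 in all 6 (3.85%). Shares of all merged regions are given here for single days only. Those for 0 or all 6 WT libraries were not computed, so such counts stand without a background. The strongest of the 36 were weak: their fold enrichments at day 3 ran from 3.73 to 7.56. All were intergenic, and the nearest starts were those of Kcnj3 at 394 kb, Ccnl1 at 51.8 kb, Kcnj15 at 15 kb, 2410131K14Rik at 133 kb and Akap13 at 47.8 kb. Of the lost regions 499 were called in all 6 WT libraries (3.58%). The strongest of these lay near Naca (24, 22.3 and 23.6 at day 0), Arpc1b, Cubn, Sept1 and Adora3, and none of these 5 held a summit of all 3 DKO day 0 libraries. By day, 5.01% of lost regions were called by all 3 WT day 3 libraries, against 38.6% of all merged regions. No call in WT day 0 libraries was found for 11.5% of lost regions, against 25.8% of all merged regions. Among these lost regions without a WT day 0 call were 1333 (9.58% of all lost regions) that no WT library of either day called. The Lpp region printed above is such a case, strong in all 3 DKO day 0 libraries and called in 0 of the 6 WT libraries and in 0 of the 6 DKO libraries of days 6 and 9.

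**Figure D5:**
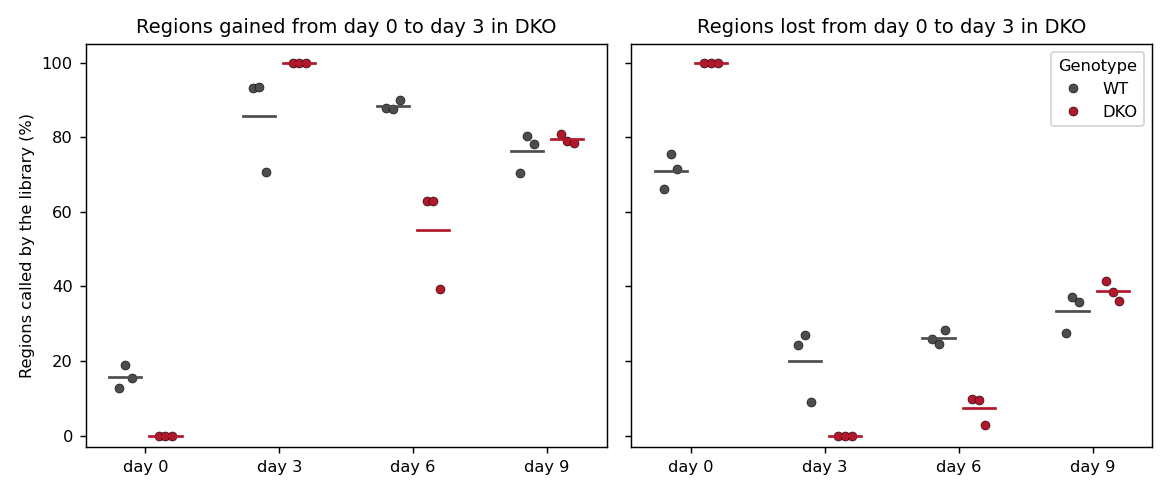
Percent of the DKO-gained regions (left) and DKO-lost regions (right) called by each library at days 0, 3, 6 and 9; dots are libraries, lines means, WT grey and DKO red. DKO values at days 0 and 3 are 0 or 100 by the rule, WT libraries go from 12.7 to 19% up to 70.8 to 93.5% (left) and from 66 to 75.5% down to 9.13 to 27% (right).

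The step was compared between the genotypes in 12 measures, and none differed at an adjusted p under 0.05. The number of peaks changed by −16716 in DKO and by −17121 in WT, a difference of 405 (exact permutation of genotype within each day, p = 0.975). The promoter share was higher at day 3 by 7.24 points in DKO and by 2.74 in WT, a difference of 4.5 points (exact permutation p = 0.175), or 6 points among the 20000 strongest peaks (exact permutation p = 0.035). The lowest unadjusted values were those of the C/EBP share, at −0.475 points (exact permutation p = 0.005, adjusted 0.06), and of the AP-1 share, at −0.794 points (exact permutation p = 0.015, adjusted 0.09).

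Gained regions were followed to the later days. Day 6 DKO libraries called 62.9%, 62.9% and 39.3% of them, day 9 libraries 80.9%, 78.9% and 78.4%, and 69.5% were called by all 3 libraries of day 9, against 50.8% of all merged regions. At day 6, 35.3% were called by all 3 libraries and 25.7% by none, against 25.8% and 52.2% of all merged regions. Of all merged regions the same libraries called 27.7% to 41% at day 6 and 58.9% to 62.5% at day 9. Lost regions were called again in part. Day 6 libraries called 9.77%, 9.47% and 2.8% of them, day 9 libraries 41.6%, 38.4% and 36.2%, and 45.9% were called in none of these 6. Of kept regions the same DKO libraries called 87.5%, 88.3% and 71.4% at day 6 and 95.2% to 96.1% at day 9. The part of detection in the later calls was not tested. The WT libraries called 87.5% to 89.9% of the gained regions at day 6. These WT libraries also called more of all merged regions, 55.8% to 58.7%, and of kept regions, 94.2% to 95.4%, than the DKO libraries of that day. At all named Zbtb16 and Fkbp5 regions the call persisted in 3 of 3 DKO libraries of days 6 and 9.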

How the data were processed

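H3K27ac ChIP-seq of DKO and WT preadipocytes (day 0) and differentiating cells (day 3) was read from 12 peak lists, and days 6 and 9 from the other 12. Per the labels, the submitters' processing notes name bcl2fastq 2.17, cutadapt 1.18, BWA and MACS2 2.1.1.20160309 with build mm10. The authors sequenced 75 bp single reads and called narrow peaks in each library. Which input served as control is not given in the sources used here, and the 16 input samples were not analysed here. For each peak the deposited lists give the fold enrichment at the summit (a ratio to local background), −log10 p and −log10 q values and a display score. The lowest −log10 q was 2 to 2.03. The authors' values were used only to rank, filter and compare peaks.

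Regions, calls and classes are as defined in the report, on chromosomes 1 to 19, X and Y. Protein-coding genes (GENCODE M21, GRCm38) held regions from 5 kb upstream of the start to the end. Reads at a summit were solved from fold and p and were whole within 0.05 for 99.97% or more of peaks in each list. They describe depth, and intervals of counting error were not computed. Differences between libraries were tested with exact two-sided permutation, whose smallest p is 0.1 (3 against 3) or 0.005 (400 relabellings of genotype within days). Levels were tested with limma 3.58.1 (trend) in R 4.3.3 on log2 fold with Benjamini-Hochberg adjustment at 0.05. Other steps used Python 3.11.15, numpy 2.4.6 and pandas 2.3.3. Region calls and the level test were checked on simulated data.

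The regions named were the 10 strongest gained and lost by median −log10 q, the 5 kept with the largest rise and fall, 5 gained and 5 lost with the opposite WT calls, and the 5 longest runs per class with gaps up to 10 kb. The genes named were the 8 with most gained and most lost regions and up to 4 per list in each direction, and further list members are named to account for counts. The members, lists and rules were chosen with earlier results of these data known. The alternatives were summit calls, full peaks, −log10 q of at least 5, 20000 peaks per library, each library left out, other scalings and a replicate block. A few items that these rules select are not reported here.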

Additional observations from a re-analysis of the deposited data

Results flagged for a closer look

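In 3 of 12 measures the change from day 0 to day 3 differed between the genotypes at an exact permutation p under 0.05 (genotype permuted within each day, two-sided), all of them motif shares of distal peaks, and none did after adjustment over the 12 measures. The C/EBP share went from 7.3% to 7.67% in WT and from 7.56% to 7.45% in DKO, a difference of −0.475 percentage points (exact permutation p = 0.005, the smallest possible, adjusted 0.06). The AP-1 share was 5.73% and 5.74% in WT and 6.27% and 5.48% in DKO, a difference of −0.794 points (exact permutation p = 0.015, adjusted 0.09). Without the long-peaked DKO day 0 replicate 2 these differences were −0.281 and −0.349. Among the 20000 strongest peaks they were −0.1 and −0.953 (exact permutation p = 0.83 and 0.14), and with stricter peaks the C/EBP difference was −0.364 (exact permutation p = 0.06). The PPAR and RXR share was 6.88% and 6.4% in WT and 6.79% and 6.63% in DKO, a difference of 0.322 points (exact permutation p = 0.045, adjusted 0.18). It was 0.274 without DKO day 0 replicate 2 (exact permutation p = 0.1), 0.304 without DKO day 0 replicate 3 (exact permutation p = 0.09), 0.226 without DKO day 3 replicate 1 (exact permutation p = 0.06), 0.326 without DKO day 3 replicate 3 (exact permutation p = 0.055) and 0.65 among the 20000 strongest peaks (exact permutation p = 0.05).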

How the results depend on the processing

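Among the 20000 strongest peaks per library there were 528 gained, 2232 lost and 11339 kept regions, 204 genes with gained only and 1180 with lost only. Summit calls gave 7967 lost and 22058 kept regions and 637 genes with gained only, and full peaks 7888 lost and 23016 kept. Leaving out 1 library at a time gave 1885 to 3080 gained, 15101 to 23129 lost and 36499 to 40625 kept regions, and 377 to 618 genes with gained only. The highest gained count came without DKO day 3 replicate 1 and the highest lost count without DKO day 0 replicate 1. The causes were not tested.

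Kept regions that rose and fell numbered 561 and 3845 without centring, and 757 and 2931 among those with summits of all 6 libraries. They ranged from 327 to 1921 and from 315 to 1137 with 1 library left out, both lowest without DKO day 3 replicate 1. With a replicate block 2095 rose and 1242 fell. Same-numbered libraries correlated by 0.038, 0.044 and 0.012, and the other pairs by −0.043 to 0.005. All these values were small, and they do not settle whether the numbers pair the libraries.

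The glucocorticoid receptor and TEAD differences turned to 0.156 and 0.185 among the 20000 strongest peaks. With 1 library left out the C/EBP difference ran from −0.203 to 0.0881, positive without DKO day 0 replicate 2, and it was −0.4 among the 20000 strongest peaks. The genotype difference in the step of peak number was −1854 with stricter peaks and −13695 to 11469 with 1 library left out, negative without DKO day 0 replicate 2 and, at −4810, without DKO day 3 replicate 2. That in promoter share was 6 points among the 20000 strongest peaks, where its exact permutation p was 0.035.

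Depth limits the weak regions. A region without a call at about 10 background reads per kb was not detected there, which does not show that it carried no H3K27ac.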
